A study of Mus musculus with 196 samples.

Results

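Mouse primordial germ cell-like cells (PGCLCs) of clone A2 were followed over the first 3 days of expansion culture, by setting the untreated libraries of culture day 3 (c3) against those of culture day 0 (c0). The libraries were picked by the clone, day and treatment in their labels, with earlier results of these data known. They are 4 of the 194 libraries of the study, with 2 libraries for each day. Both days were processed under 1 extraction protocol. PGCLCs are obtained by turning embryonic stem cells into epiblast-like cells and growing these as aggregates with BMP4, SCF, LIF and EGF. Cells taken on day 4 of that induction and sorted as positive for the reporter BV (Prdm1-mVenus) are c0. Sorted cells were grown on m220 feeder cells, which carry membrane-bound SCF, and were sorted again as positive for the reporter SC (Dppa3-ECFP) before RNA was taken at c3 and later days. The reporter used for the sort and the day of culture therefore cannot be told apart.

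Clone A2 (129S1:C57BL/6 background) carries Prdm1-mVenusTg/0 and Dppa3-ECFPTg/0. It also carries piggyBac transgenes for the Zglp1 coding sequence with mCherry under a tetO/mCMV promoter (with EF1a-Pac) and for rtTA with Neo under an EF1a promoter. The c3 and c0 cells received no doxycycline. Clones G10 and E5 carry the same reporters and lack Zglp1 (Zglp1 -/-), and their c0 libraries and untreated c4 libraries, 2 of each, were used to see whether the c0 levels and the early changes of A2 are found in other clones. H18 is the parent line with the reporters only, and it has untreated libraries of days 3.5 and 4. The genotypes of A2 and H18 are each represented here by a single clone, and the knockout genotype by G10 and E5. The own traits of A2 and its genotype therefore cannot be told apart, nor can those of H18. A trait found in only G10 or only E5 cannot be assigned to the knockout. The labels do not say whether a pair of libraries came from separate cultures. The limma p-values rest on the spread within groups over 191 PGCLC libraries of all lines, days and treatments, not over the compared libraries alone. That spread may be technical. A2 c0, A2 c3 and G10 c0 share the first extraction protocol (RNeasy Micro), and E5 c0 and the c4 libraries of A2, G10 and E5 have the second (RNeasy Micro or NucleoSpin RNA XS).

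Primordial germ cells are the founders of sperm and eggs. After they are specified in the embryo under BMP signals, they keep much of the pluripotency network, divide, and erase DNA methylation across the genome. A group of germline genes with CpG-rich promoters, which other cells keep silent by promoter methylation, becomes active as that methylation is lost, and entry into meiosis follows only later, under signals that include retinoic acid and BMP. Expansion culture lets PGCLCs divide in this early state.

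Levels were read as RPM, reads at the 3' ends of transcripts per 1000000 reads of endogenous genes. The A2 libraries held 1322159 to 3359218 reads, so that 1 read was worth 0.298 to 0.756 RPM, and 13480 to 14471 genes had a read. The c0 and c4 libraries of G10 and E5 held 877040 to 3672739 reads. Replicate pairs differed by more than sampling noise, with a chi-square per degree of freedom of 6.15 at A2 c3 and 5.00 at A2 c0. The early germ cell markers were abundant on both days: the summed level of the 18 markers was 11868 to 12964 RPM at c3 and 10801 to 10803 RPM at c0. The 27 mesoderm markers in the table summed to 74.7 to 95.3 RPM at c3 and 64.0 to 71.6 RPM at c0. The 16 endoderm markers summed to 30.3 to 39.0 RPM at c3 and 32.8 to 55.3 RPM at c0. Of these 16, 10 had a read at c3 and 13 at c0, and 3 reached 10 RPM in a c0 library. Sox17, Cer1 and Ttr had no read on either day. The 20 feeder and stroma markers summed to 735 to 1016 RPM at c3 and 739 to 943 RPM at c0, with Lum and Thy1 at 0 in all 4 libraries.

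A gene was tested where at least 2 of the 4 libraries reached 10 RPM, and it was called where the Benjamini-Hochberg adjusted p of limma was under 0.05 and the change was at least 1 on the log2(RPM + 1) scale. Of 8146 genes tested, 254 (3.12%) were called. At c3, 177 genes (2.17%) were higher and 77 genes (0.945%) were lower than at c0, and the median change of all genes tested was 0.10. The balance of rises and falls depended on the scaling: with TMM scaling factors, which put the median at -0.05, 131 genes rose and 148 fell, and edgeR's quasi-likelihood test on the recovered reads called 125 and 118. The genes named for their size had to have no overlap of the days, so that the separation of the days in the plot of the largest changes comes from that rule.

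**Figure D1:**
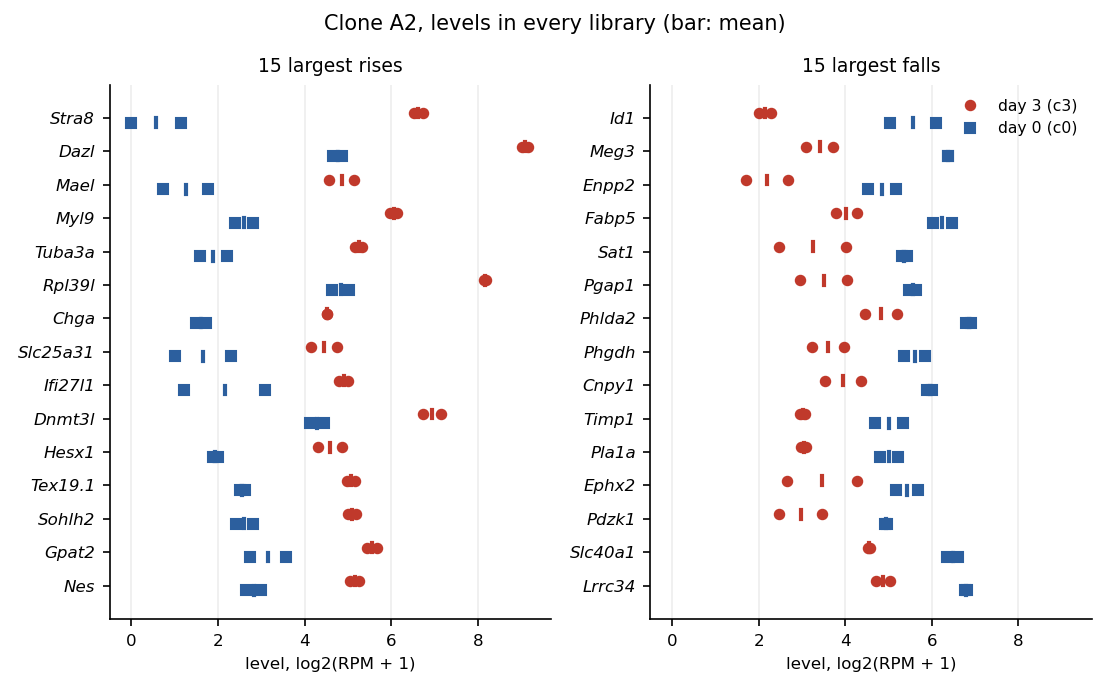
Levels of the 15 genes with the largest rises (left) and the 15 with the largest falls (right) in clone A2, as log2(RPM + 1), with c3 libraries as red circles and c0 libraries as blue squares. Genes were drawn from called genes whose libraries do not overlap, so the separation of the days is part of how they were chosen; the gap is widest for Stra8, at 91.5 and 105 RPM at c3 against 0 and 1.20 RPM at c0.

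Germline genes that promoter methylation silences in other cells rose at c3 in most of the members that could be tested. Of 24 such genes, 15 were tested, and 13 of them rose and none fell, against 2.17% of all tested genes that rose. The median change of the tested members was 1.95, with a range of -0.42 to 4.33, beside 0.10 for all genes. In bulk RNA, a larger share of cells with a transcript and more of it per cell cannot be told apart. The 9 members that were not tested had fewer than 2 libraries at 10 RPM, and members that start near 0 could pass it only through c3. Of the tested members, 7 reached 10 RPM in no c0 library and could be tested only because they were high at c3. Of the 7 members that passed on the c0 libraries alone, 5 rose and none fell.

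Dazl, an RNA-binding protein that germ cells need before they can enter meiosis (mm10 chromosome 17, 50279395 to 50293636, minus strand), stood at 517 and 572 RPM at c3, against 24.2 and 28.3 RPM at c0. Its change was 4.33 on the log2 scale (SE 0.49, limma adjusted p = 8.5e-11). Mael, a component of the piRNA pathway that silences transposons (mm10 chromosome 1, 166201201 to 166238747, minus strand), reached 22.7 and 34.2 RPM at c3, against 0.663 and 2.40 RPM at c0. Every c3 library of both genes was far above every c0 library, although Mael rested on only 10 reads at c0. Its change was 3.60 (SE 0.36, adjusted p = 6.5e-13).

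Genes of the same group with other germ cell roles moved likewise. Tuba3a, an alpha-tubulin of the testis, had 39.3 and 35.1 RPM at c3 against 1.99 and 3.61 RPM at c0 (change 3.36). Slc25a31, the ADP/ATP carrier of germ cell mitochondria, had 16.6 and 25.9 RPM at c3 against 0.994 and 3.91 RPM at c0 (change 2.80). Tex19.1, which restrains retrotransposons in germ cells, had 34.8 and 30.4 RPM at c3 against 4.64 and 5.11 RPM at c0 (change 2.51). In all of these the lower c3 library exceeded the higher c0 library. Tuba3a has a close copy, Tuba3b, and counting of 3' ends could divide reads between them.

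Ddx4, the RNA helicase that marks the germline, already had reads at c0 and rose by less. It stood at 64.3 and 79.8 RPM at c3, against 24.5 and 20.1 RPM at c0 (change 1.64, SE 0.32, adjusted p = 0.00029). Tdrkh and Mov10l1, both of the piRNA pathway, changed by 2.00 and 1.75. Stk31, Cyct and Rpl10l, genes of the testis, rose by 1.40, 1.51 and 1.30, and reads of Cyct and Rpl10l may be shared with close copies. Piwil2, a piRNA-binding protein, had 34.0 and 25.6 RPM at c3 against 13.3 and 13.2 RPM at c0 and did not pass (change 1.10, adjusted p = 0.063). Zfp42, also a pluripotency gene, had 123 and 135 RPM at c3 against 155 and 192 RPM at c0 and did not pass either.

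How many of these calls were made depended on each library. Of the tested members, 10 of 15 were called without c0 replicate 1 and 9 of 15 without c0 replicate 2. With a c3 replicate left out only 8 members stayed testable, since a gene near 0 at c0 then has a single library above 10 RPM, and 4 of 8 were called without c3 replicate 1 and 2 of 8 without c3 replicate 2. Dazl and Ddx4 were called with each of the 4 libraries left out, and Mael, Tuba3a, Slc25a31, Tex19.1, Tdrkh and Mov10l1 with either c0 library left out. Rpl10l lost its call with each library left out (adjusted p = 0.053 to 0.34). Stk31 lost it without c0 replicate 2 (0.29), c3 replicate 1 (0.057) or c3 replicate 2 (0.089), and Cyct without c0 replicate 1 (0.12) or c3 replicate 2 (0.059). With TMM scaling factors 12 of 15 members rose.

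**Figure D2:**
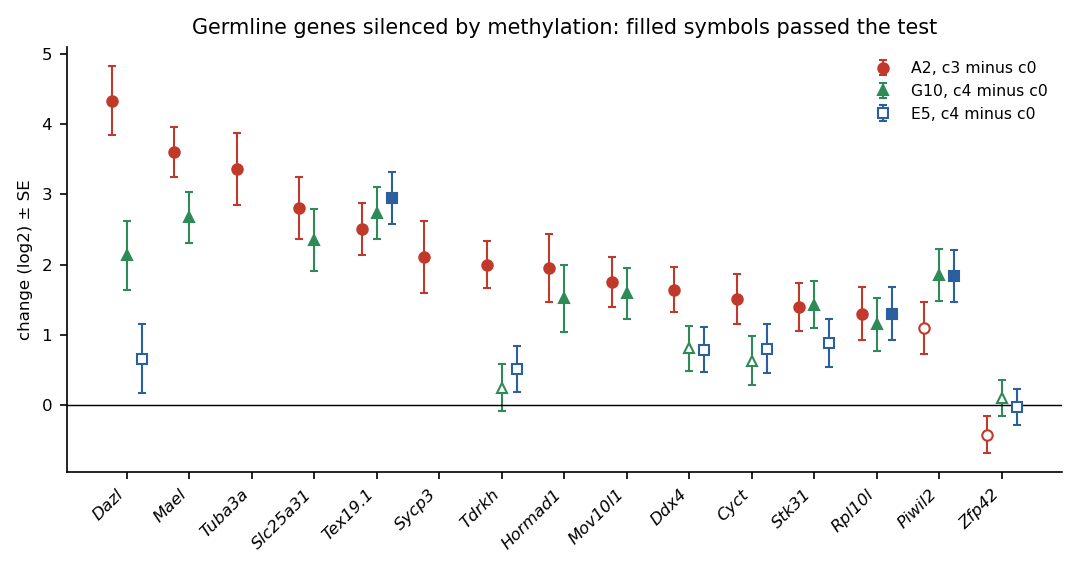
Change in log2(RPM + 1) with its standard error for each germline gene silenced by methylation that was tested in clone A2 (c3 minus c0, red circles), with the same genes in clones G10 (c4 minus c0, green triangles) and E5 (c4 minus c0, blue squares) where tested. Filled symbols passed the test. All symbols of A2 except Piwil2 and Zfp42 are filled, and Dazl lies at 4.33 in A2, 2.13 in G10 and 0.66 in E5.

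The promoters of these genes were read for what the group shares besides its expression. In the RefSeq table of GRCm38.p6, each promoter window covers 250 bases before and 50 bases after the RefSeq start of the gene. The hexamer CACGTG, an E-box bound by MAX and MGA, and the hexamer TCCCGC, the core of sites bound by E2F6, were searched on both strands, since these factors are known to take part in silencing germline genes outside the germline. CACGTG was present in 11 of the 22 list members with a promoter (50%), and in 2187 of all 27025 genes (8.09%). TCCCGC was present in 11 of the 22 members (50%), and in 5959 of all genes (22%). Among the 13 genes that rose, 7 had CACGTG and 9 had TCCCGC. The median window of the list held 20.5 CpG dinucleotides against 8 for all genes, which follows from a list of genes with CpG-rich promoters, and GC content was not separated from the hexamer counts. The motifs were chosen with the results known. Matches of the hexamers can overlap by a single end base. A match is a description of the letters and not of a bound site.

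Windows of 4 genes that rose are shown because they differ in these letters although all rose: Mael has both hexamers, Slc25a31 has both with the TCCCGC close to its start, Dazl is CpG-rich with neither, and Stra8, a gene of meiosis described next, has neither and holds 10 CpGs. Capitals mark CACGTG and TCCCGC, or GCGGGA where the second lies on the other strand. Mael is the minus strand of chr1:166238695-166238994, Slc25a31 the plus strand of chr3:40708621-40708920, Dazl the minus strand of chr17:50293571-50293870 and Stra8 the plus strand of chr6:34920698-34920997, each read 5′ to 3′ along its gene.
Mael: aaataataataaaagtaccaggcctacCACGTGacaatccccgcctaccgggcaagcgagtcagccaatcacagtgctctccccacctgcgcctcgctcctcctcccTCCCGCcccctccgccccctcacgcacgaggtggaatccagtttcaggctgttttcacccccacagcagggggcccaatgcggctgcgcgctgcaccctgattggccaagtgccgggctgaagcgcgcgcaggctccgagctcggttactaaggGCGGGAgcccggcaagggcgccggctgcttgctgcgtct
Slc25a31: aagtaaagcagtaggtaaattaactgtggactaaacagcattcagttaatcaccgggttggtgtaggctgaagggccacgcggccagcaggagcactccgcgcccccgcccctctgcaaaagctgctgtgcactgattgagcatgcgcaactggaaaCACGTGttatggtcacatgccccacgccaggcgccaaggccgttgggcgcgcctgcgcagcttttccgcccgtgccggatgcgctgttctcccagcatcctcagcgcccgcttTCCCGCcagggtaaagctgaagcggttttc
Dazl: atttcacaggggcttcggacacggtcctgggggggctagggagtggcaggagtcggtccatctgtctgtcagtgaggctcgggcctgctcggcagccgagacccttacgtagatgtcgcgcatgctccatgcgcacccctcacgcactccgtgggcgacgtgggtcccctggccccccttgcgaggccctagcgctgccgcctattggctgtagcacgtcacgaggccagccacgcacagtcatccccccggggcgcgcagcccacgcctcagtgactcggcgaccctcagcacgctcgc
Stra8: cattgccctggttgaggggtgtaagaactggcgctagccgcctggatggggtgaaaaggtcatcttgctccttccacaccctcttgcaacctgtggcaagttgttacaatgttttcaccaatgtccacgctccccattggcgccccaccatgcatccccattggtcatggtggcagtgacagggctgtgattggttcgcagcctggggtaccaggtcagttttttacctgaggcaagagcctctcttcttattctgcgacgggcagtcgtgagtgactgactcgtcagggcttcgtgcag
The windows of Mael, Slc25a31, Dazl and Stra8 hold 24, 22, 28 and 10 CpG dinucleotides. The Stra8 window lies inside the gene as GENCODE places it, so its letters describe the RefSeq start only.

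Genes of meiotic prophase rose in part. Of 31 such genes, 10 were tested, 6 rose and none fell, with a median change of 1.28, beside 2.17% of all tested genes that rose and a median change of 0.10 over all genes tested. The filter was met only through c3 by 4 of the 10, Stra8 among them, and of the 5 that met it on c0 alone, 2 rose. Sycp3 and Hormad1 are also in the methylation-silenced list. Stra8, which opens the meiotic programme and is induced by retinoic acid (mm10 chromosome 6, 34920163 to 34939344, plus strand), had 91.5 and 105 RPM at c3, against 0 and 1.20 RPM at c0. That is 475 reads in the c3 pair and 4 reads in the c0 pair, and the days do not overlap. The change of 6.06 (SE 0.69, limma adjusted p = 1.2e-10) was the largest named here and depends on the pseudocount for a gene this low at c0.

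The other rises among meiotic genes were smaller. Sycp3, of the axis of meiotic chromosomes, had 21.2 and 40.8 RPM at c3 against 10.6 and 3.31 RPM at c0, and Hormad1, which loads on that axis, had 16.6 and 36.6 RPM at c3 against 5.97 and 5.41 RPM at c0. The c3 libraries of Sycp3 and Hormad1 lay well apart from each other, yet above both c0 libraries. The cohesin subunits Stag3 and Smc1b changed by 1.50 and 1.19. Stag3 had 73.4 and 91.1 RPM at c3 against 29.8 and 26.7 RPM at c0, and Smc1b had 97.6 and 102 RPM at c3 against 41.1 and 45.1 RPM at c0. Tex15, needed for meiotic recombination and piRNA silencing, changed by 1.37.

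Of these meiotic genes, 3 of 10 were called without c0 replicate 1, 2 of 10 without c0 replicate 2, 2 of 6 without c3 replicate 1 and 0 of 6 by limma without c3 replicate 2, a setting in which Stra8 was not testable. Stra8 was called with either c0 library left out. Smc1b lost its call with each of the 4 libraries left out (adjusted p = 0.13 to 0.2), Tex15 with either c0 library (0.12 and 0.1), Hormad1 with either c0 library (0.064 and 0.09), Sycp3 without c0 replicate 2 (0.31) or c3 replicate 2 (0.2), and Stag3 without c3 replicate 2 (0.052). The other 2 tested genes of the retinoid response list, of 17 members, did not pass.

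Stra8 was not at this level in the other lines. The parent line H18 had 0 and 1.88 RPM on day 3.5 and 0.820 and 0 RPM on day 4, G10 had 1.84 and 0.327 RPM at c4, and E5 had 1.70 and 1.07 RPM at c4. Untreated A2 stayed high, with 149.6 and 43.6 RPM at c4, 313 and 75.9 RPM at c5, 169 and 213 RPM at c7, and 376 and 287 RPM at c9. Only A2 among these lines carries the Zglp1 transgene. Its mCherry row, which reads the transcript of that transgene, had 188 and 155 RPM at c3 against 83.5 and 60.1 RPM at c0 without doxycycline, and in 111 libraries of lines without the transgene it did not exceed 2.08 RPM. Endogenous Zglp1 was too low to check the labels by, at 0.756 and 2.08 RPM in A2 c3, 1.66 and 0.902 RPM in A2 c0, 0 and 1.14 RPM in G10 c0, and 0 and 0.545 RPM in E5 c0. Whether the transgene row has a part in the level of Stra8 was not tested.

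The change of Stra8 between c4 and c0 differed between A2 and G10 by 5.27 (SE 0.98, limma adjusted p = 0.00067), a contrast added after these levels had been seen. Both clones were extracted under the first protocol at c0 and under the second at c4. Of 8962 genes, 105 (1.17%) were called in that difference, with 74 (0.826%) higher and 31 (0.346%) lower. The same difference against E5, whose c0 protocol does not match, had 740 calls (8.24%) of 8979 genes, with 587 (6.54%) higher and 153 (1.7%) lower. The difference of Stra8 between A2 and G10 was called with each library left out that kept it testable. The count against G10 was 43 without A2 c0 replicate 2 or A2 c4 replicate 1, 57 and 23 without G10 c0 replicates 1 and 2, 36 without G10 c4 replicate 1 and 66 without replicate 2 of either c4 group. The count against E5 was 343 without A2 c0 replicate 2, 425 and 458 without A2 c4 replicates 1 and 2, 279 and 409 without E5 c0 replicates 1 and 2, and 1238 and 249 without E5 c4 replicates 1 and 2.

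**Figure D3:**
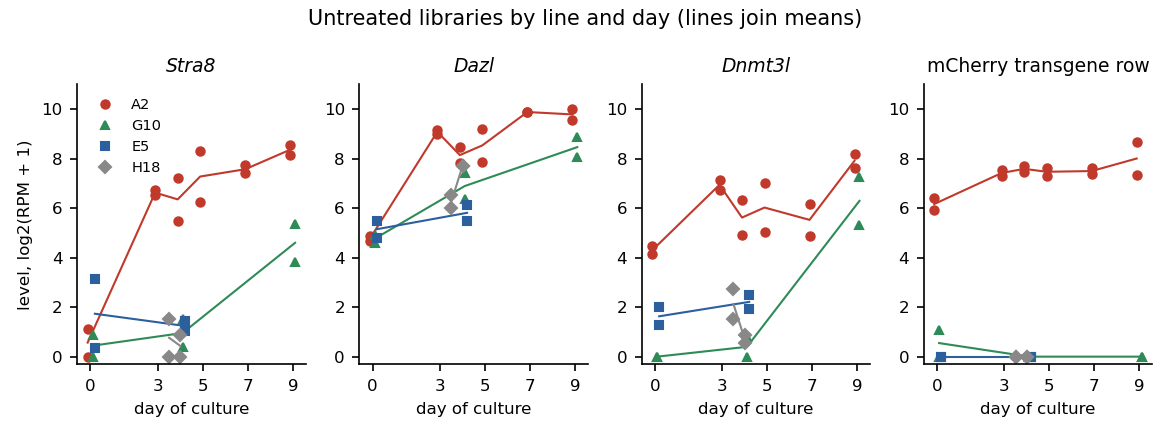
Levels of Stra8, Dazl, Dnmt3l and the mCherry transgene row in untreated libraries, as log2(RPM + 1), by day of culture for A2 (red circles), G10 (green triangles), E5 (blue squares) and H18 (grey diamonds), with lines joining means. Stra8 is at 91.5 and 105 RPM in A2 at c3 and at most 1.88 RPM in H18 on days 3.5 and 4, whereas Dazl reaches 209 and 207 RPM in H18 on day 4.

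Among other rises with a germ cell role, Sohlh2, a transcription factor of young germ cells, had 35.5 and 31.0 RPM at c3 against 4.31 and 6.01 RPM at c0 (change 2.49, SE 0.34, limma adjusted p = 4.5e-08). Gpat2, a glycerolipid enzyme of the piRNA pathway, had 42.4 and 49.7 RPM at c3 against 10.9 and 5.71 RPM at c0 (change 2.39). Rpl39l, the germ cell form of a ribosomal protein, had 293 and 283 RPM at c3 against 31.8 and 23.7 RPM at c0 (change 3.34). The c3 replicates of Sohlh2, Gpat2 and Rpl39l were close, and their calls were made with every library left out that kept them testable. Reads of Rpl39l may be shared with copies of Rpl39.

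Dnmt3l, the cofactor of the de novo DNA methyltransferases, had 141 and 106 RPM at c3 against 20.9 and 16.5 RPM at c0 (change 2.65, SE 0.78, adjusted p = 0.03). Its groups do not overlap, but the call was lost with each of the 4 libraries left out (adjusted p = 0.13 to 0.21). It was the only called gene of the 12 tested genes of DNA methylation. For Dnmt3l, A2 also stood apart from G10 and E5. Dnmt3l had 0.737 and 0 RPM in G10 at c4 and 2.83 and 4.62 RPM in E5 at c4. In G10 it already had no read in either c0 library. Dnmt3a and Dnmt3b, the enzymes that Dnmt3l assists, did not pass (changes 0.43 and 0.50), nor did the maintenance enzyme Dnmt1 (0.42), its partner Uhrf1 (-0.16) or the oxidase Tet1 (-0.72).

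Rises outside the germ cell lists included Myl9, a light chain of non-muscle and smooth muscle myosin, with 62.0 and 69.1 RPM at c3 against 5.97 and 4.21 RPM at c0 (change 3.46, limma adjusted p = 2.5e-08). Chga, a protein of secretory granules, had 21.9 and 22.0 RPM at c3 against 2.32 and 1.80 RPM at c0. Nes, an intermediate filament of neural progenitors, had 37.1 and 32.2 RPM at c3 against 5.30 and 6.91 RPM at c0. For Myl9, Chga and Nes the c3 replicates nearly coincided and both exceeded c0 several-fold.

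Of the 14 neural markers only 2 were tested, Nes and Pax6, and limma called Nes alone. The sum of the 14 markers was 75.0 to 80.2 RPM at c3 against 21.3 to 22.5 RPM at c0. Sox1, Neurog2, Olig2, Zic1 and Dcx, markers that define neural cells, had no read on either day. Pax6 had 26.5 and 20.8 RPM at c3 against 8.95 and 4.81 RPM at c0 and did not pass by limma (change 1.69, adjusted p = 0.079). Both edgeR and DESeq2 called Nes and Pax6.

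Ifi27l1 and Hesx1, a homeobox repressor, changed by 2.74 and 2.64, and lost their calls without c0 replicate 1 (adjusted p = 0.077) and c0 replicate 2 (0.056) in that order. Pfkfb3, which makes the activator of phosphofructokinase, had 71.9 and 77.7 RPM at c3 against 17.2 and 13.5 RPM at c0 (change 2.22, adjusted p = 6.1e-05), and was the 1 call among 18 tested genes of glycolysis. Egr1, an immediate early gene, was called at 2.26 (adjusted p = 0.046), but its c0 libraries lay far apart, at 1.66 and 21.0 RPM against 29.5 and 43.2 RPM at c3. Without c0 replicate 1 its change was 0.74 (adjusted p = 0.81), and it also lost its call without c3 replicate 1 (0.13) or c3 replicate 2 (0.3), with TMM scaling factors, and by edgeR and DESeq2. Gas1, an inhibitor of growth, and Phlda3, a p53 target, were the only calls of their lists (changes 1.60 and 1.54), and both lost them without c0 replicate 1 (0.51 and 0.17) or c0 replicate 2 (0.051 and 0.21). Both also lost them with TMM scaling factors. Gas1 lost its call as well with a pseudocount of 5, without the filter, in a fit of only the groups compared, and by edgeR and DESeq2, neither of which called any gene of its list.

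Most of the early germ cell identity genes themselves were not called. Of 17 tested, 2 rose and none fell, beside 2.17% of all tested genes that rose. Their median change was 0.12, beside 0.10 for all genes tested. At an unadjusted limma p under 0.05, 4 were higher and none was lower. Rhox6 and Rhox9, X-linked homeobox genes of the germline, were those called. Rhox6 had 774 and 1013 RPM at c3 against 286 and 247 RPM at c0 (change 1.73, SE 0.31, limma adjusted p = 5.6e-05). Rhox9 had 707 and 967 RPM at c3 against 284 and 236 RPM at c0 (change 1.67), a call lost without c0 replicate 2 (adjusted p = 0.051) or c3 replicate 2 (0.079). Reads may be shared among the Rhox genes, whose sequences are alike.

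The neighbour Rhox5 had 884 and 963 RPM at c3 against 489 and 501 RPM at c0; its change of 0.90 passed the p threshold (adjusted p = 0.0088) but not that of size. Dppa3, whose reporter was used to sort c3 but not c0 cells, had 1692 and 2268 RPM at c3 against 860.3 and 1002 RPM at c0 (change 1.08, adjusted p = 0.068). Prdm1, whose reporter was used at c0, had 62.0 and 75.6 RPM at c3 against 61.6 and 62.8 RPM at c0 (change 0.14, SE 0.38). Prdm14, which with Prdm1 and Tfap2c specifies germ cells, was at a change of 0.01 (SE 0.45), and Tfap2c at -0.82 (SE 0.44).

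Among 19 tested genes of core and naive pluripotency, 1 fell and none rose by limma, beside 0.945% of all tested genes that fell. Tdh, the threonine dehydrogenase of mouse pluripotent cells, had 239.8 and 290.2 RPM at c3 against 629 and 739 RPM at c0 (change -1.37, limma adjusted p = 0.0044), a call lost without c0 replicate 2 (0.096) or c3 replicate 1 (0.11). Pou5f1, the central pluripotency factor, had 355 and 329 RPM at c3 against 357 and 405 RPM at c0 (change -0.15, SE 0.46). Sox2 had 368 and 401 RPM at c3 against 623 and 703 RPM at c0 (change -0.78, SE 0.40, not called). Klf2 and Nr0b1 changed by -1.39 and -2.18 without passing by limma (adjusted p = 0.05 and 0.056). Both edgeR and DESeq2 called 3 genes of this list, Klf2, Nr0b1 and Tdh. For Pou5f1 the c3 and c0 libraries were close, whereas for Sox2, Klf2 and Nr0b1 both c3 libraries lay below both c0 libraries.

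The strongest fall was in Id1, a direct target of BMP signalling that blocks the action of basic helix-loop-helix factors (mm10 chromosome 2, 152736251 to 152737410, plus strand). It had 3.03 and 3.87 RPM at c3 against 31.5 and 67.6 RPM at c0, and the days do not overlap. The change was -3.41 (SE 0.57, limma adjusted p = 1.5e-05), and it was called with either c3 library left out; with a c0 library left out it was not testable. Among 7 tested BMP targets, 2 fell and none rose, with a median of -0.92, beside 0.945% of all tested genes that fell. None of the 3 targets that met the filter on c3 alone was called by limma, although edgeR and DESeq2 both called Id3.

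Smad7, the inhibitory SMAD that BMP and TGF-beta induce, was the other call. It had 31.8 and 4.47 RPM at c3 against 62.0 and 22.8 RPM at c0, so that the higher c3 library lay above the lower c0 library. Its change of -1.53 (adjusted p = 0.037) was -0.24 without c3 replicate 2 (0.9) and -0.83 without c0 replicate 1 (0.61), and the call was also lost with edgeR and DESeq2. Id3, another inhibitor of helix-loop-helix factors, had 112 and 153 RPM at c3 against 229.7 and 363 RPM at c0 (change -1.13, adjusted p = 0.056). Without c0 replicate 1, 0 of 4 testable BMP targets were called, and without c0 replicate 2 or c3 replicate 2, 1 of 5 and 1 of 7.

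Of 11 tested genes of the integrated stress response, which ATF4 drives, 3 fell, none rose and 8 were not called, with a median of -0.45, beside 0.945% of all tested genes that fell and a median of 0.10 over all genes tested. Asns, asparagine synthetase, had 183 and 216 RPM at c3 against 441 and 492 RPM at c0 (change -1.22, SE 0.22, limma adjusted p = 5.6e-05), and kept its call with every library left out. Phgdh, the first enzyme of serine synthesis, had 8.32 and 14.6 RPM at c3 against 40.1 and 56.5 RPM at c0 (change -2.01, adjusted p = 0.00019; without c3 replicate 1, -1.64 and 0.051). For both enzymes the days were well separated. Mthfd2, of mitochondrial folate metabolism, changed by -1.09 and lost its call with each library left out (adjusted p = 0.077 to 0.24). Without c3 replicate 1 the count was 1 of 11, and without each of the others it was 2 of 11.

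Of 13 tested imprinted genes, 3 fell and none rose, beside 0.945% of all tested genes that fell. Meg3, a maternally expressed long non-coding RNA (mm10 chromosome 12, 109541001 to 109571726, plus strand), had 7.56 and 12.2 RPM at c3 against 82.2 and 81.4 RPM at c0 (change -2.96, SE 0.66, limma adjusted p = 0.0022). Impact, a paternally expressed regulator of translation, had 36.3 and 54.8 RPM at c3 against 138 and 130.1 RPM at c0 (change -1.56). Phlda2, a maternally expressed gene that limits placental growth, had 35.5 and 21.1 RPM at c3 against 110.4 and 118 RPM at c0 (change -2.02). The c0 replicates of Meg3, Impact and Phlda2 were nearly equal and far above c3. Without c3 replicate 1 none of the 13 was called (adjusted p = 0.084 for Meg3 and 0.082 for Impact), and Phlda2 lost its call with each library left out (0.11 to 0.33). The other 10 tested imprinted genes did not pass, and the median of the list was -0.12.

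The remaining large falls were of enzymes, transporters and secreted proteins. Enpp2, which makes the lipid mediator lysophosphatidic acid, had 2.27 and 5.36 RPM at c3 against 22.2 and 34.9 RPM at c0 (change -2.66). Sat1, which acetylates polyamines, had 4.54 and 15.2 RPM at c3 against 38.4 and 42.1 RPM at c0 (change -2.12). Fabp5, a fatty acid carrier, had 18.2 and 12.8 RPM at c3 against 64.3 and 87.2 RPM at c0 (change -2.22). The days were separated for each of Enpp2, Sat1 and Fabp5, with the c3 replicates of Sat1 and Enpp2 further apart, as a ratio, than the c0 replicates. Slc40a1, the cellular iron exporter, had 21.9 and 22.6 RPM at c3 against 81.2 and 96.8 RPM at c0 (change -1.95). Timp1, an inhibitor of matrix metalloproteinases, had 6.81 and 7.44 RPM at c3 against 24.9 and 39.1 RPM at c0 (change -1.99).

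Cnpy1, known in zebrafish for a part in FGF signalling, Pgap1, which remodels GPI anchors, Pla1a, a phospholipase, Ephx2, an epoxide hydrolase, Pdzk1, a scaffold of membrane transporters, and Lrrc34 fell by 1.92 to 2.06 on the log2 scale.

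Many of these falls lost their calls with 1 library left out. A group then holds a single library, so a lost call does not by itself mean a smaller change. Slc40a1 stayed at -1.92 and -1.97 without c3 replicates 1 and 2, whereas Ephx2 shrank to -1.16 without c3 replicate 1. Without c3 replicate 1, the calls of Enpp2 (limma adjusted p = 0.18), Sat1 (0.12, with a change of -1.35), Pgap1 (0.19), Timp1 (0.073), Pla1a (0.13), Ephx2 (0.49), Pdzk1 (0.32), Slc40a1 (0.063) and Lrrc34 (0.1) were lost. Without c3 replicate 2, those of Fabp5 (0.088), Pla1a (0.19) and Slc40a1 (0.056) were lost. Without c0 replicate 1, those of Ephx2 (0.078), Pdzk1 (0.13) and Lrrc34 (0.062) were lost, and without c0 replicate 2, those of Fabp5 (0.076), Pgap1 (0.063), Ephx2 (0.25), Pdzk1 (0.13) and Slc40a1 (0.082). Cnpy1 lost its call with each library left out (0.065 to 0.32). Over all genes, 106 were called without c0 replicate 1, 103 without c0 replicate 2, 73 without c3 replicate 1 and 91 without c3 replicate 2.

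Genes of growth and of several pathways that could move with culture were mostly not called. By limma, edgeR and DESeq2, none of 25 tested genes of DNA replication, 22 of G2 and M phase, 32 of oxidative phosphorylation, 20 of cholesterol synthesis, 12 hypoxia targets, 13 LIF and STAT3 targets or 17 of the heat shock and unfolded protein response was called. At an unadjusted limma p under 0.05, 3 genes of replication, 4 of G2 and M phase, 2 of oxidative phosphorylation, 3 of cholesterol synthesis, 4 hypoxia targets, 1 LIF and STAT3 target and 2 of the heat shock response passed. Their medians, in the same order, were 0.18, 0.19, 0.20, 0.14, 0.20, 0.15 and -0.05.

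Limma called none of 12 tested genes of fatty acid synthesis, 11 of the Nodal pathway, 15 NRF2 targets, 6 cAMP targets or 13 of adhesion and migration either, with 4, 2, 4, 2 and 2 at an unadjusted p under 0.05, but other tools called some of these. The genes called by both edgeR and DESeq2 include Scd1, a desaturase of fatty acids, Lefty1, a Nodal inhibitor, Gstm1, a glutathione transferase, and Dusp1, a phosphatase of MAP kinases. Lefty1 had 264 and 335 RPM at c3 against 94.1 and 111 RPM at c0. Both c3 libraries lay above both c0 libraries (limma change 1.54, adjusted p = 0.15). DESeq2 alone also called Cd24a, a surface protein, in the adhesion list.

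No primed epiblast gene was called of 5 tested and no mesoderm gene of 3 by limma, edgeR or DESeq2, with 0 and 1 at an unadjusted p under 0.05, and no Hox gene was tested. Of the 4 tested feeder markers none was called by these tools, with 2 at an unadjusted p under 0.05. Among them was the collagen gene Col3a1, at 10.6 and 72.3 RPM at c3 against 0.331 and 12.0 RPM at c0 (change 2.81, limma adjusted p = 0.053), with the days overlapping. The plot of list members shows a selection of these lists beside those that moved.

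**Figure D4:**
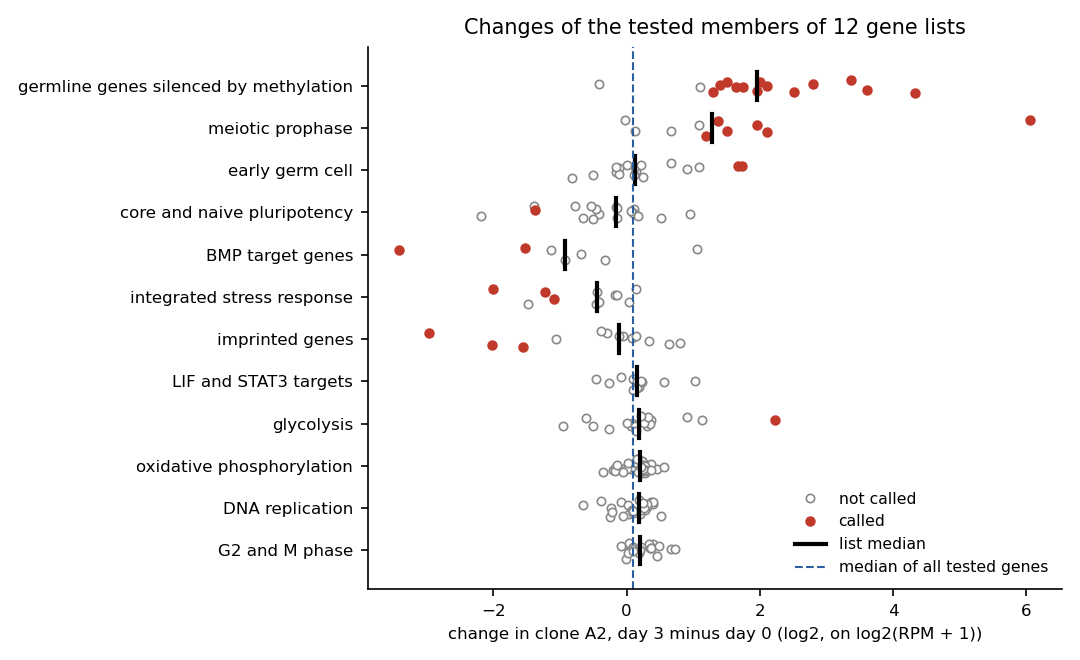
Change in clone A2 (c3 minus c0, on log2(RPM + 1)) of each tested member of 12 gene lists. Filled red points were called, open points were not, black bars are list medians and the dashed line is the median of all tested genes, 0.10. The bar of the methylation-silenced germline genes lies at 1.95 and that of the BMP targets at -0.92, while the points of replication, G2 and M phase and oxidative phosphorylation gather near the dashed line.

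The c0 state of A2 was then compared with c0 of the Zglp1 knockout clones, to see which c0 levels hold elsewhere. In G10, of 8175 genes tested, 734 (8.98%) were called, with 534 (6.53%) higher and 200 (2.45%) lower than in A2. In E5, of 8202 genes tested, 633 (7.72%) were called, with 491 (5.99%) higher and 142 (1.73%) lower than in A2. These comparisons share the A2 c0 libraries, with each other and with c3 against c0. G10 c0 has the extraction protocol of A2 c0 and E5 c0 has the other. Scaling mattered again: with TMM scaling factors 331 genes were higher and 391 lower in G10, and 331 higher and 287 lower in E5. With a library left out the calls fell to 469 without A2 c0 replicate 1, 361 without A2 c0 replicate 2, 387 without G10 c0 replicate 1 and 244 without G10 c0 replicate 2, and for E5 to 406 and 271 without the A2 replicates 1 and 2 and to 123 and 252 without the E5 replicates 1 and 2.

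For several genes that moved most in A2, the c0 levels of the other clones were close to those of A2. Dazl had 23.3 and 29.6 RPM in G10 c0 and 44.2 and 27.0 RPM in E5 c0, against 24.2 and 28.3 RPM in A2 c0, a difference of 0.01 for G10 and 0.39 for E5 (SE 0.49 each). Id1 had 44.0 and 49.0 RPM in G10 c0 and 50.5 and 68.3 RPM in E5 c0, against 31.5 and 67.6 RPM in A2 c0, a difference of 0.01 and 0.34 (SE 0.57 each). Meg3 had 102 and 132 RPM in G10 c0 and 101 and 99.9 RPM in E5 c0, against 82.2 and 81.4 RPM in A2 c0. For Dazl and Id1 the libraries of the 3 clones overlap, and for Meg3 those of A2 are the lowest (differences 0.50 and 0.29, SE 0.66 each, not called). Of the methylation-silenced germline genes, 1 of 8 tested in G10 and 1 of 9 in E5 was higher than in A2 and none was lower. Of all genes tested, 6.53% and 5.99% were higher. The call was Tdrkh in both clones, a gene that reached 10 RPM in no A2 c0 library. None of the 7 members that met the filter in A2 alone was called.

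Several mesoderm genes were higher at c0 in the knockout clones. Of 27 mesoderm genes in the table, 7 were tested in G10 and 8 in E5, and 5 and 6 of these were higher. Of them, 4 in G10 and 5 in E5 had reached 10 RPM in no A2 library and were tested only because they were high in the knockout clone, so these counts say nothing of the list as a whole. The 2 members that met the filter in A2 alone were not called by limma in either clone. T (Brachyury), the transcription factor of nascent mesoderm, had 10.2 and 14.8 RPM in G10 c0 and 35.7 and 56.1 RPM in E5 c0, against 0 and 1.20 RPM in A2 c0 (limma adjusted p = 4.6e-06 and 1.9e-12). Msx1, a homeobox target of BMP, had 48.3 and 66.1 RPM in G10 c0 and 72.9 and 86.3 RPM in E5 c0, against 3.65 and 3.61 RPM in A2 c0 (differences 3.64 and 4.12). Evx1, Wnt3 and Msx2 were also higher in both clones, and Sp5 in E5. The A2 c0 libraries were far below every knockout c0 library for T and Msx1.

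Of the BMP targets, 6 of 11 tested were higher in G10 and 6 of 12 in E5, beside 6.53% and 5.99% of all genes tested, and of the 6 that met the filter in A2 alone, 2 were higher in each clone. Id2, an inhibitor of helix-loop-helix factors like Id1, had 31.7 and 33.1 RPM in G10 c0 and 35.7 and 41.7 RPM in E5 c0, against 3.31 and 2.10 RPM in A2 c0 (differences 3.19 and 3.44). Thus Id1 and Id2 stood in different ratios in A2 and in the knockout clones at c0. Hypoxia targets were higher in part, with 4 of 14 in G10 and 4 of 13 in E5, among them Bhlhe40, Bnip3 and Vegfa, and 2 of the 11 that met the filter in A2 alone were higher in each clone. Calls were also made in other lists. In G10 and E5, 4 of 14 and 3 of 14 LIF and STAT3 targets were higher, as were 3 of 11 and 4 of 11 genes of the Nodal pathway and 5 of 21 and 3 of 21 of cholesterol synthesis. The Nodal list also had 1 lower gene in each clone. Of the 10 LIF and STAT3 targets that met the filter in A2 alone, 2 were higher in each clone. NRF2 targets were lower in 3 of 14 and 2 of 15, beside 2.45% and 1.73% of all genes. Early germ cell genes went both ways: of 17 tested, 3 were lower and 2 higher in G10, and 4 were lower and 1 higher in E5. With either G10 or E5 c0 library left out, none of 3 testable mesoderm genes and at most 1 BMP target was called by limma, because a gene near 0 in A2 then has a single library above the filter. Without A2 c0 replicate 2, Wnt3 (adjusted p = 0.1 in G10 and 0.084 in E5), Msx2 (0.33 in both) and Vegfa (0.27 and 0.2) lost their calls, and Msx2 also lost them without each knockout library (0.11 and 0.21 in G10, 0.23 and 0.12 in E5).

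Rhox5 differed the other way. It had 78.3 and 92.4 RPM in G10 c0 and 80.6 and 87.7 RPM in E5 c0, against 489 and 501 RPM in A2 c0 (differences -2.53 and -2.54, SE 0.23 each, limma adjusted p = 2.3e-15 and 1.6e-15). Rhox6 was lower in both clones (-1.29 and -1.27), and Rhox9 passed in E5 (-1.18) and not in G10 (-0.94, adjusted p = 0.063). The knockout clones had these Rhox levels at c0 well below A2, and the replicates of Rhox5 were close in each clone. Rhox9 in E5 lost its call with each library left out (0.07 to 0.16), and Rhox6 in E5 without E5 c0 replicate 1 (0.091). Whether genotype, clone or culture goes with these differences cannot be told apart.

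Among the largest differences by size, Igfbpl1, Fndc3c1, Rspo3, an activator of WNT signalling, and App, the amyloid precursor protein, were higher in the knockout clones. Igfbpl1 had 23.7 and 31.9 RPM in G10 c0 and 25.9 and 27.2 RPM in E5 c0, against 0.331 and 1.80 RPM in A2 c0. Fabp3, a fatty acid carrier, had 29.2 and 26.2 RPM in G10 c0 and 35.0 and 27.2 RPM in E5 c0, against 184 and 183 RPM in A2 c0. Genes named by size had to have no overlap of the clones. Htra1, a secreted protease, was lower in both (-2.33 and -3.20), as were Baz1a, a chromatin remodeller (-2.74 and -1.85), Eps8l2 (-2.33 and -1.18) and Syngr1 (-1.99 and -2.19). Eps8l2 in E5 lost its call with each library left out (limma adjusted p = 0.077 to 0.37), and Syngr1 without A2 c0 replicate 1 or G10 c0 replicate 1 in G10 (0.051 and 0.098) and without E5 c0 replicate 1 in E5 (0.063). Phlda2 was called lower in E5 and not in G10, at 2.10 and 2.18 RPM in E5 c0 and 82.5 and 90.1 RPM in G10 c0, against 110.4 and 118 RPM in A2 c0.

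**Figure D5:**
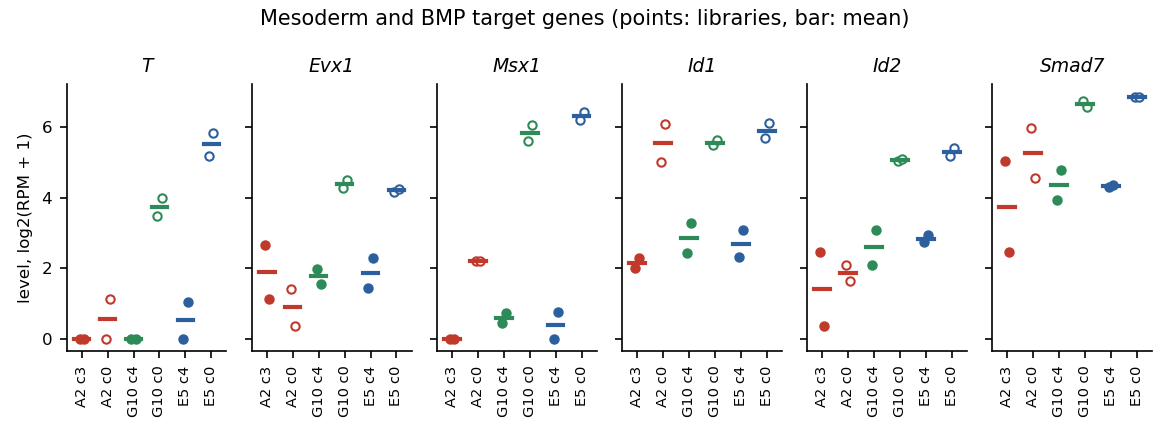
Levels of 3 mesoderm genes and 3 BMP targets as log2(RPM + 1) in A2 (red, c3 and c0), G10 (green, c4 and c0) and E5 (blue, c4 and c0), with cultured cells as filled points, c0 as open points and bars at the means. Open points of Id1 lie together for all clones, whereas those of T, Evx1, Msx1 and Id2 lie lower in A2 than in G10 and E5.

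Changes at c4 against c0 in G10 and E5 use none of the A2 libraries and so show which early changes are met in other clones, although 1 day later. In G10, of 8384 genes tested, 557 (6.64%) were called at c4 against c0, with 418 (4.99%) higher and 139 (1.66%) lower, across a change of extraction protocol. In E5, of 8392 genes, 1406 (16.8%) were called within 1 protocol, with 598 (7.13%) higher and 808 (9.63%) lower. The E5 c4 replicates lay far apart, with a chi-square per degree of freedom of 16.1, against 1.86 at E5 c0, 6.24 at G10 c4 and 1.62 at G10 c0. With a library left out the G10 calls were 349 and 267 without c0 replicates 1 and 2 and 138 and 328 without c4 replicates 1 and 2, and the E5 calls were 799 and 847 without c0 replicates 1 and 2 and 894 without c4 replicate 2. Of the 177 genes that rose in A2, 59 rose in G10, which is 33.3% of the rises of A2 and 14.1% of those of G10. In E5, 44 of them rose, which is 24.9% of the rises of A2 and 7.36% of those of E5. Of the 77 genes that fell in A2, 11 fell in G10 (14.3%, and 7.91% of the falls of G10) and 18 in E5 (23.4%, and 2.23% of the falls of E5).

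Some methylation-silenced germline genes rose in the knockout clones too. In G10, 9 of 13 tested members rose, beside 4.99% of all genes, and in E5, 3 of 9 rose, beside 7.13%, and none fell in either. The sets tested differ, and 5 members in G10 and 1 in E5 met the filter only through c4. Of the 7 that met it on c0 alone, 3 rose in G10 and 1 in E5. The difference between these clones was not tested, and the extraction protocol changes between c0 and c4 in G10 only. In G10 the count was 7 of 13 without either c0 library, 2 of 8 without c4 replicate 1 and 4 of 8 without c4 replicate 2, and in E5 it was 2 of 9 without c0 replicate 1 and 2 of 8 without c4 replicate 1. Dazl had 169 and 82.5 RPM in G10 c4 against 23.3 and 29.6 RPM in G10 c0 (change 2.13, limma adjusted p = 0.0012; without c4 replicate 1, 1.61 and 0.16). It had 69.7 and 43.7 RPM in E5 c4 against 44.2 and 27.0 RPM in E5 c0, where the days overlap (change 0.66, adjusted p = 0.31). Tex19.1 rose in both (2.73 and 2.95). Mael and Slc25a31 rose in G10 (2.67 and 2.35) and were not tested in E5, where Mael had 17.0 and 8.17 RPM at c4 against 6.31 and 0.817 RPM at c0. In the parent line H18, Dazl had 90.7 and 62.8 RPM on day 3.5 and 209 and 207 RPM on day 4.

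Outside that list, Sohlh2 (3.70 in G10 and 2.60 in E5), Gpat2 (2.08 and 2.80), Rpl39l (2.45 and 2.60) and Myl9 (1.49 and 1.58) also rose in both clones, Myl9 with a call lost without c0 replicate 1 of either clone (limma adjusted p = 0.26 in G10 and 0.054 in E5). Rhox5, Rhox6 and Rhox9 rose by 3.26, 2.83 and 2.81 in G10 and by 3.36, 2.93 and 3.21 in E5. After these rises Rhox5 stood at 866 and 784 RPM in G10 c4 and 960.3 and 792 RPM in E5 c4, beside 884 and 963 RPM in A2 c3. The knockout clones, lower in Rhox5 than A2 at c0, were at c4 near the level of A2 c3.

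Id1 fell in both clones, to 4.42 and 8.84 RPM in G10 c4 against 44.0 and 49.0 RPM in G10 c0 (change -2.70, limma adjusted p = 0.00043, and 0.065 without c4 replicate 1), and to 3.97 and 7.46 RPM in E5 c4 against 50.5 and 68.3 RPM in E5 c0 (change -3.20, adjusted p = 1.4e-05). These levels are close to the 3.03 and 3.87 RPM of A2 c3. In all 3 clones the cultured libraries were below every c0 library. In untreated A2, Id1 had 3.25 and 12.6 RPM at c4 and 56.8 and 34.5 RPM at c9, when its level was again that of c0. Among BMP targets, 5 of 10 tested fell in G10 and 6 of 11 in E5, beside 1.66% and 9.63% of all genes tested. Of the 7 that met the filter on c4 alone, 2 fell in each clone. Smad7 fell by 2.30 and 2.53 on the log2 scale, in G10 with a call lost without c4 replicate 1. The BMP count was 2 of 7 and 1 of 7 without c0 replicates 1 and 2 of G10, 1 of 10 without its c4 replicate 1, and 2 of 7 without either c0 library of E5.

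Mesoderm genes that were high at c0 in the knockout clones were low there at c4. Of 7 tested in G10, 4 fell and 1 rose, and of 8 in E5, 6 fell, but 4 in G10 and 5 in E5 met the filter only through their high c0 libraries. Of the members that met it on c4 alone, 3 in G10 and 1 in E5, none fell by limma. T had 0 and 0 RPM in G10 c4 and 0 and 1.07 RPM in E5 c4, and 0 and 0 RPM in A2 c3. LIF and STAT3 targets fell in the knockout clones in 6 of 14 and 9 of 13 tested genes, beside 1.66% and 9.63% of all genes, and in 2 of 9 and 4 of 7 of those that met the filter on c4 alone. This list had no call in A2 by limma, edgeR or DESeq2. At c0, 4 of its 14 tested genes in G10 and 3 of 14 in E5 were already above A2. Of the 10 that met the filter in A2 c0 alone, 2 were higher in each clone. Without either c0 library, no fall of 3 tested mesoderm genes was called by limma in G10, and none of 3 and 2 in E5 without c0 replicates 1 and 2. The LIF count in G10 was 0 of 11 and 2 of 11 by limma without c0 replicates 1 and 2 and 3 of 14 and 1 of 14 without c4 replicates 1 and 2, and in E5 it was 5 of 10 without either c0 library and 4 of 13 without c4 replicate 2. The differences between A2 and the other clones in these lists were tested gene by gene only, between c4 and c0.

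Meg3 fell in both clones, to 22.8 and 26.5 RPM in G10 c4 against 102 and 132 RPM in G10 c0 (change -2.20, limma adjusted p = 0.019) and to 24.9 and 35.5 RPM in E5 c4 against 101 and 99.9 RPM in E5 c0 (change -1.72, adjusted p = 0.042). These calls of Meg3 were lost with each library left out (0.071 to 0.2 in G10 and 0.086 to 0.19 in E5). Sat1 (-1.60 and -2.47), Cnpy1 (-2.75 and -2.71) and Slc40a1 (-1.65 and -2.08) fell as well, in G10 with calls lost without c0 replicate 2 for Sat1 (0.056) and without c0 replicate 1 or c4 replicate 1 for Slc40a1 (0.16 and 0.23). Phlda2 did not follow A2: it rose by 3.33 in E5 and did not pass in G10 (0.29, SE 0.62). Asns also did not pass in either clone (-0.22 and -0.04, SE 0.22 each), with 334 and 315 RPM in G10 c4 against 383 and 374 RPM in G10 c0. Other genes of the integrated stress response did fall there, 3 of 12 tested in G10 and 4 of 13 in E5, and none rose. Of all genes, 1.66% and 9.63% fell. Of the stress response genes that met the filter on c4 alone, 2 of 10 fell in G10 and 0 of 8 in E5.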

How the data were processed

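The authors deposited a table of gene levels as RPM, reads per 1000000 reads of endogenous genes, for 25706 genes and 3 transgene rows. Where the transgene rows lift a column's total furthest, the deposited values were treated as a signal on the same RPM scale. Per the labels, 1 ng of total RNA was the input for amplified 3' end libraries, read on a NextSeq500. Per the submitters' processing notes, the tools were HTSeq 0.9.1, SAMtools 1.3, Bowtie 1.1.2, TopHat2 2.1.0 and cutadapt 1.9.1, and the build was mm10. No molecular identifiers are stated, so counting error is only part of the error. Low values were whole multiples of 1 read (100% within 0.05 read). Of 195 value columns, 194 matched labelled samples and 1 matched none and was not used.

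A limma 3.58.1 model (R 4.3.3; robust eBayes with a trend) took log2(RPM + 1) of 191 PGCLC libraries in 98 groups, which share 1 estimate of the spread. Genes with at least 10 RPM in at least 2 compared libraries were tested, with Benjamini-Hochberg adjustment over all of them. All p-values are from this fit unless edgeR 4.0.16 or DESeq2 1.42.0, which were run on the recovered reads of 34 libraries in 17 groups, is named. The fit was tested on simulated data. Gene positions are from GENCODE M21 on mm10 and promoters from RefSeq (GRCm38.p6).

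Named genes are, in each direction, the 15 called genes of A2 that changed most (133 rises and 63 falls could be named, having 20 RPM or more as the mean of the higher day, no overlap of the days, and no symbol of a predicted gene, Rik clone or pseudogene), the 5 largest differences each way between clones at c0, and members of 35 gene lists. The libraries and lists were chosen with earlier results of these data known. Alternatives were other pseudocounts, no filter, TMM factors, a replicate block, a fit of only the groups compared, the transgene rows in the total, edgeR, DESeq2, and leaving out each library. Some genes of the lists are not reported here by name.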

Additional observations from a re-analysis of the deposited data

Results flagged for a closer look

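The change between c4 and c0 differed between A2 and G10, as a contrast of contrasts in the limma fit, for these genes of the report and its lists. The contrast was added after the levels of Stra8 had been seen, and its direction is the change in A2 minus the change in G10, in log2 units with adjusted p-values by limma.

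Stra8 differed by 5.27 (adjusted p = 0.00067). It had 149.6 and 43.6 RPM in A2 c4 against 0 and 1.20 RPM in A2 c0, and 1.84 and 0.327 RPM in G10 c4 against 0.847 and 0 RPM in G10 c0.

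Mesoderm, WNT and BMP genes differed with G10 high at c0 and low at c4. T differed by 3.16, Msx1 by 3.39 and Rspo3 by 3.53, and each was under 2 RPM in A2 c4, with at most 3.65 RPM in A2 c0. Id2 differed by 4.77 (adjusted p = 1.4e-05), with 27.8 and 10.4 RPM in A2 c4 against 3.31 and 2.10 RPM in A2 c0, and 3.31 and 7.53 RPM in G10 c4 against 31.7 and 33.1 RPM in G10 c0. Id2 thus moved in opposite directions in the clones, and at A2 c3 it was still at 4.54 and 0.298 RPM.

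Fndc3c1 differed by 4.03 and Bhlhe40, a hypoxia target, by 3.74. Stat3, the mediator of LIF signals, differed by 3.00, with 39.7 and 48.5 RPM in A2 c4 against 13.3 and 16.2 RPM in A2 c0, and 29.5 and 16.0 RPM in G10 c4 against 72.0 and 54.7 RPM in G10 c0. Psat1, of serine synthesis, differed by 1.20.

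Eno1, the glycolytic enolase, differed by -3.38 (adjusted p = 0.00044). It had 14.8 and 62.0 RPM in A2 c4 against 327 and 288 RPM in A2 c0, and 221 and 233 RPM in G10 c4 against 214 and 213 RPM in G10 c0, while A2 c3 still had 351 and 268 RPM. A2 c3 and c4 differ in extraction protocol as well as day. Rhox5 differed by -2.23, Dppa5a by -1.66, Gstm1 by -1.60 and Crabp1, which binds retinoic acid, by -2.79.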

How the results depend on the processing

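In A2, 254 genes were called at c3 against c0. Without the filter on low values 391 were called, and the other settings on all 4 libraries gave 206 to 279, apart from the replicate block in a fit of only the groups compared, which called 444 (278 higher and 166 lower). With 1 library left out, 73 to 106 genes were called. Of 52 called genes followed by name, 19 kept their call under every alternative that gave a value and none changed direction. The 2 libraries of each group share replicate numbers, but the labels do not say that a number marks a shared culture. Deviations of same-numbered A2 libraries correlated at 0.433 over 8146 genes with only 2 pairs, and the replicate block over all libraries gave 265 genes (182 higher and 83 lower) and ended no call of the 52. For G10 c0 against A2 c0, leaving out a library gave 244 to 469 calls, against 734. For E5 c0 against A2 c0 it gave 123 to 406, against 633. For G10 c4 against c0, 883 were called without the filter and 138 to 349 with a library left out, against 557. For E5 c4 against c0, 695 were called in a fit of only the groups compared and 799 to 1384 with a library left out, against 1406. The difference between A2 and G10 gave 204 in a fit of only the groups compared and 23 to 106 with a library left out, against 105. That between A2 and E5 gave 200 and 249 to 1238, against 740, and for Stra8 its value of 6.28 no longer passed in the fit of only the groups compared. The cause of these shifts was not tested, except that leaving out a library removes genes from the test. TMM factors moved the median of all genes by more than 0.1: to -0.05 from 0.10 in A2, to -0.03 from 0.19 in G10 c0, and to -0.03 from 0.17 in E5 c0. With TMM the difference between A2 and G10 had 62 higher and 76 lower genes, against 74 and 31, and that between A2 and E5 349 and 344, against 587 and 153. By edgeR, 267 genes were higher and 268 lower in G10 c0, 271 and 223 in E5 c0, and 237 and 154 in G10 c4. Depth limits low genes, since 1 read was worth 0.298 to 0.756 RPM in A2, and p-values rest on a spread shared with other groups.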
